A study of Mus musculus with 9 samples.

Results

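Autophagy machinery is described here as 34 genes picked by symbol: the ULK kinases and their partners, the class III PI3-kinase complex, the ATG2, ATG9 and WIPI proteins, the conjugation enzymes and ATG4 proteases, the LC3 and GABARAP proteins and 3 cargo receptors. All 34 were among the 46095 gene symbols of the deposited count table, and all 34 were among the 14026 genes with enough counts to be tested. RNA sequencing was done on bone marrow-derived macrophages (BMDMs), macrophages that are grown in culture from marrow precursors, of wild-type Balb/c mice whose labelled age is 6 weeks. The 9 libraries form 3 groups of 3, which are cells with LPS plus BHB, cells with LPS, and control cells. Strain, genotype and age are shared by every library. LPS is the usual short form of lipopolysaccharide, the outer membrane lipid of Gram-negative bacteria that Toll-like receptor 4 senses, and BHB that of beta-hydroxybutyrate, a ketone body made by the liver in fasting. The labels expand neither name and state no dose or duration. There is no group with BHB alone, so the effect of BHB is seen here in cells that also had LPS, and not by itself. Nothing in the labels says that replicates came from separate cultures or mice, and p-values then measure only the spread between these libraries, which may be technical.

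Autophagy wraps cytoplasm, organelles or bacteria in a double membrane and delivers them to lysosomes. The ULK kinase complex starts the process, and the class III PI3-kinase complex then marks the growing membrane with the lipid PI3P. ATG9 and ATG2 bring lipid to that membrane and WIPI proteins bind PI3P on it. A conjugation system like that of ubiquitin then attaches LC3 and GABARAP proteins to the membrane, where cargo receptors bind them. In macrophages autophagy is known for the removal of damaged mitochondria and of bacteria and for restraint of inflammasome activity, and LC3 and p62 (encoded by Sqstm1) are its most used protein markers. Transcript levels bear on the supply of these components and do not measure the rate of autophagy, which depends on protein turnover.

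Total counts ran from 29633411 to 32798920 per library. The control libraries were not alike in genes that LPS induces: Acod1, which LPS libraries held at 156090 to 172641 counts, had 1808 counts in control replicate 3, 1739 in control replicate 2 and 24 in control replicate 1. Counts of members called, and values of the members that depend on it, are therefore also given without these 2 libraries, which leaves control replicate 1 on the assumption that it varies like the other groups. All 10 macrophage markers examined were tested, with a summed level of 15628 to 16191 CPM (counts scaled to library size, as described under the processing) in LPS plus BHB libraries, 9883 to 11263 CPM in LPS libraries and 19705 to 23066 CPM in control libraries. In LPS against control 3 of them were higher and 7 lower. Summed over 12 genes, neutrophil and precursor markers had 5.52 to 8.21 CPM in LPS plus BHB libraries, 2.38 to 3.89 CPM in LPS libraries and 6.40 to 6.96 CPM in control libraries. Over 10 genes, dendritic cell markers, of which Itgax had most counts, had 347 to 455 CPM, 434 to 519 CPM and 465 to 616 CPM in the same groups. Over 10 genes, lymphocyte markers had 2.75 to 4.17 CPM, 2.44 to 3.67 CPM and 12.3 to 12.8 CPM, nearly all from Cd4, and Klrb1c had 0 counts in every library. Over 10 genes, stromal markers had 133 to 163 CPM, 99.5 to 110.1 CPM and 11.8 to 19.3 CPM. Pdgfrb had most of these counts in LPS plus BHB and LPS libraries, and Pecam1 had more than Pdgfrb in each control library. The part of these shifts in the results was not tested, and in bulk RNA fewer cells of a type and less RNA per cell cannot be told apart.

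Levels of the members relative to each other were compared per kilobase of exon (RPKM, CPM divided by the merged exon length). Sqstm1, the gene of the cargo receptor p62, was the most abundant member in each group, at 1944 ± 162 RPKM in LPS plus BHB libraries, 2951 ± 51.9 RPKM in LPS libraries and 179 ± 13.2 RPKM in control libraries (mean ± SD, n = 3 each, as for every ± beside a level below). It took 0.544 to 0.634% of all counts of a library in LPS plus BHB, 0.928 to 0.951% in LPS and 0.0635 to 0.0724% in control. Ranked by count among all genes, it stood at 7 to 9 in LPS plus BHB libraries, at 2 in LPS libraries and at 135 to 165 in control libraries. Sqstm1 gave 75.8 to 78.5% of all member counts in LPS plus BHB, 82.1 to 82.9% in LPS and 23.5 to 26.4% in control. The other members together made up 0.173 to 0.174% of the counts in LPS plus BHB libraries, 0.193 to 0.203% in LPS libraries and 0.202 to 0.206% in control libraries. That order turns with TMM scaling, under which the other members summed to 1889 to 1911 CPM in LPS plus BHB libraries, 2038 to 2125 CPM in LPS libraries and 1762 to 1790 CPM in control libraries.

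Gabarapl1, which encodes a GABARAP protein, came next in every group, with 78.4 ± 0.565 RPKM in LPS plus BHB libraries, 114.5 ± 5.23 RPKM in LPS libraries and 87.3 ± 1.51 RPKM in control libraries. Such ranks depend on the merged exon length, which was 2013 bases for Gabarapl1, 6871 for Nbr1 and 7517 for Map1lc3b. By CPM, Nbr1 stood above Gabarapl1 in LPS plus BHB (222 and 158) and control (179 and 176), and below it in LPS (153 and 230). The median over the 34 members was 8.56 RPKM in LPS plus BHB, 10.6 RPKM in LPS and 8.79 RPKM in control. Atg2a, which encodes a lipid transfer protein, was the lowest, at 0.282 ± 0.165, 0.336 ± 0.171 and 0.0870 ± 0.0445 RPKM in the same groups. Gabarap and Atg10 were also low, and these were the 3 members with a mean under 5 CPM in each group. Ranked by RPKM among the 34, Optn stood at 6 in LPS plus BHB, 3 in LPS and 20 in control, and Map1lc3b at 15, 13 and 4 in these groups. Atg7 stood at 29, 28 and 14. Replicates lay close together, with a median coefficient of variation over the members of 4.43% in LPS plus BHB, 4.64% in LPS and 3.66% in control. Atg2a had the widest spread in each group, at 58.5%, 50.9% and 51.2%.

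**Figure D1:**
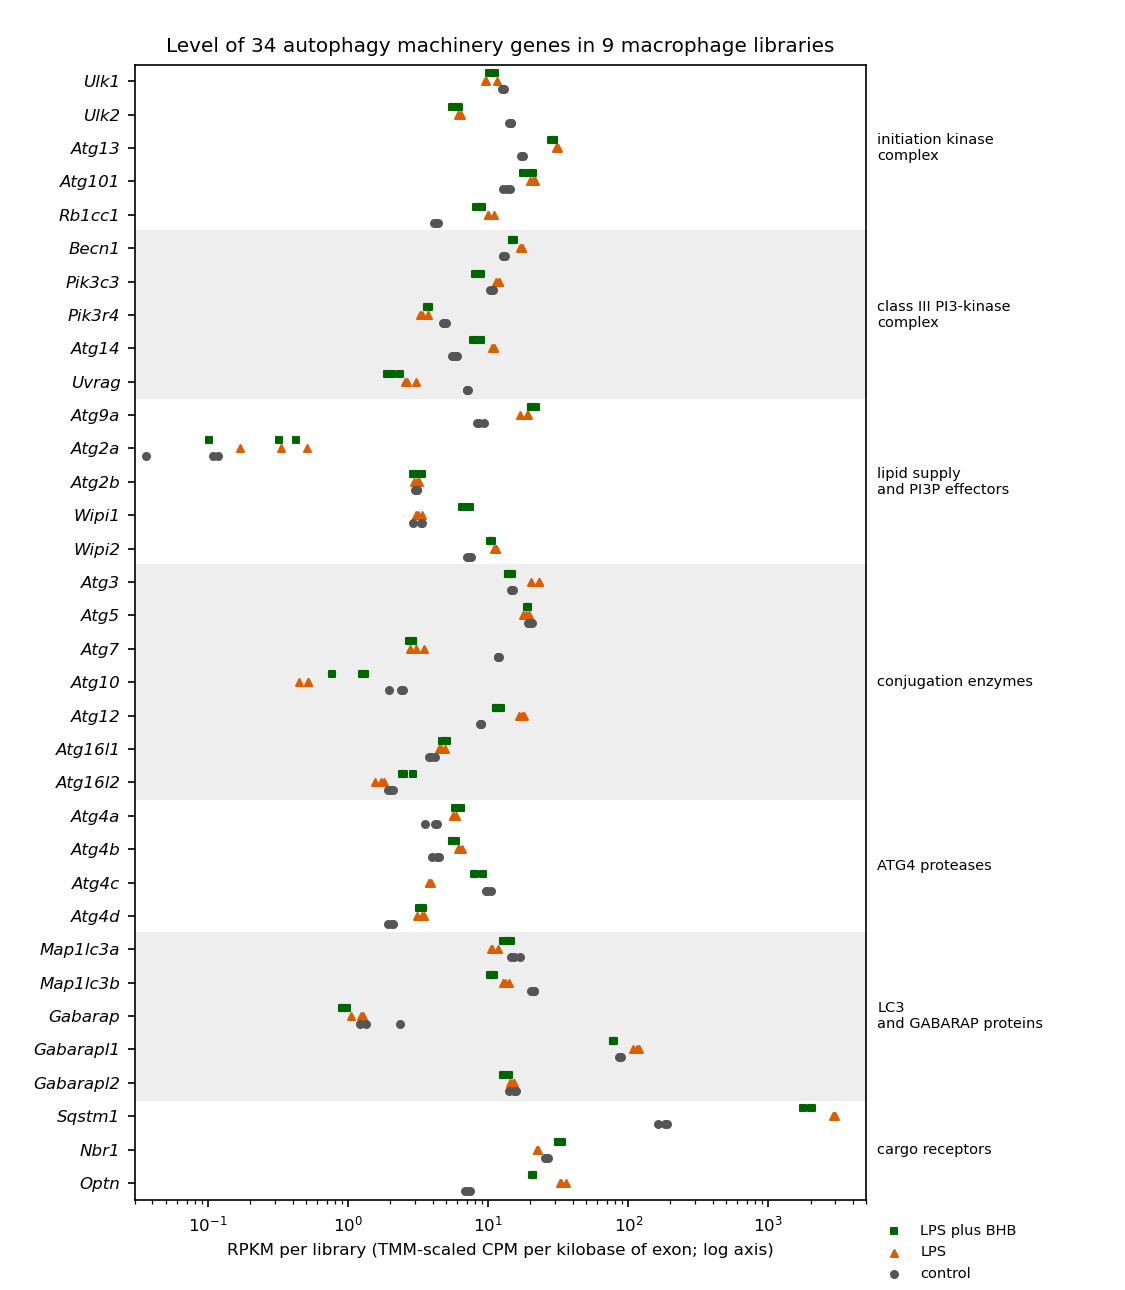
Level of each of the 34 autophagy machinery genes in each of the 9 libraries, in RPKM on a log axis, with LPS plus BHB as squares, LPS as triangles and control as circles, and with the roles shaded in turn. Sqstm1 lies far to the right of all other members in each group, at 1944 RPKM in LPS plus BHB, 2951 RPKM in LPS and 179 RPKM in control, and Atg2a lies farthest to the left.

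Promoter windows, from 250 bases before to 50 after the RefSeq start (GRCm38.p6), were at hand for 28 of the 34 members, as 31 windows. There was none for Atg12, Atg16l1, Becn1, Map1lc3a, Pik3c3 and Rb1cc1. They were searched on both strands for CACGTG, the core of the CLEAR element that the lysosomal regulator TFEB binds, for TGACNNNGC, the core of the antioxidant response element, for the AP-1 site TGANTCA and for GGANTTTCC, a form of the kappaB site. CACGTG was found in 4 member windows, those of Atg3, Atg5, Atg7 and Atg14, and in 7.15% of all 32851 windows of the genome. TGACNNNGC was found in 3 member windows, those of Atg13, Map1lc3b and Ulk2, and in 12.4% of all windows. TGANTCA and GGANTTTCC were found in 0 member windows, and in 7.81% and 1.25% of all windows. A TGANTCA match can overlap one of TGACNNNGC. These are descriptions of letters in short windows and show no binding. Members with the same motif did not all move the same way in LPS against control. With CACGTG, Atg3 and Atg14 were called higher, Atg7 lower, and Atg5 was not called. With TGACNNNGC, Atg13 was called higher, and Ulk2 and Map1lc3b lower. The stretches before the start are shown for Sqstm1 and Optn, the members with the largest rises with LPS, which held none of the 4 motifs, for Atg3, whose level LPS raised and BHB lowered and whose window held CACGTG at positions -94 and -71 from the start, and for Ulk2, which fell with LPS and held TGACGTCGC at position -17. Each is given 5′ to 3′ on the strand of its gene, with motif matches in capitals. The Sqstm1 stretch is chr11:50210828-50211070 (minus strand), that of Optn chr2:5064118-5064367 (minus strand), that of Atg3 chr16:45158579-45158784 (plus strand) and that of Ulk2 chr11:61855093-61855342 (minus strand).
Sqstm1: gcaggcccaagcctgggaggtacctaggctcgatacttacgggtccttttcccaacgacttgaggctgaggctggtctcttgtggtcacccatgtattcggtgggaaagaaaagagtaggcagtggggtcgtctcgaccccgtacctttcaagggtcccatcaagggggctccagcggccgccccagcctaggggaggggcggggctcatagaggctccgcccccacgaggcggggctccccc
Optn: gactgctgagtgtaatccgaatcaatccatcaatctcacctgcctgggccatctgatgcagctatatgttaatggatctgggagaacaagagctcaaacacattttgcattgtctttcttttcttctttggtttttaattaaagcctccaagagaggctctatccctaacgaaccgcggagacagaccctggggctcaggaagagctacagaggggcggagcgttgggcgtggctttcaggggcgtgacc
Atg3: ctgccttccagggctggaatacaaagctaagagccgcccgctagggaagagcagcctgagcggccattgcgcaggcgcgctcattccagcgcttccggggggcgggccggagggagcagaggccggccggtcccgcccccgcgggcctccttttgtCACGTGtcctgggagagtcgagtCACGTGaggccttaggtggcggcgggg
Ulk2: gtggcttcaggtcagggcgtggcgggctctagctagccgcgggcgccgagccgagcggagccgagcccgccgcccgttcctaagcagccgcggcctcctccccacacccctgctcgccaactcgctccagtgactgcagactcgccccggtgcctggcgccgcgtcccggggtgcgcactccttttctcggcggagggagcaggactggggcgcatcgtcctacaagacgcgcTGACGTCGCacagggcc

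Cells with LPS, compared with control cells, had more Sqstm1, Optn and Rb1cc1 transcript and less Atg7, Atg10, Atg4c, Uvrag and Ulk2. The change ran in both directions within every role but lipid supply and PI3P effectors. Of the 34 members, 18 were higher and 11 lower at an adjusted p under 0.05 (edgeR quasi-likelihood test, Benjamini-Hochberg over all genes tested), and 5 were not called (Atg2b, Atg5, Gabarap, Gabarapl2 and Wipi1). Among all genes tested 38.4% were called higher and 41.4% lower. A called change of at least 2-fold was found for 10 members, 5 higher and 5 lower, which is 29.4% of them against 45% of all genes. The median log2 fold change was 0.19 over the members and -0.06 over all genes, and the median size of the change was 0.60 over the members and 0.90 over all genes. Scaling by library totals alone lowers the median of all genes by 0.27 on the log2 scale, and the split of the members is then 16 higher and 16 lower. Without control replicates 2 and 3 it was 15 higher and 11 lower.

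Cells with LPS plus BHB, compared with cells with LPS, had less Optn, Atg3, Sqstm1, Atg12 and Gabarapl1 transcript and more Atg10, Atg4c and Wipi1. Of the members, 7 were higher and 12 lower, where 26.4% of all genes were called higher and 24.4% lower, and 15 members were not called. Only Atg10, Atg4c and Wipi1 changed by at least 2-fold, each upward, which is 8.82% of the members against 11.2% of all genes. The median log2 fold change was -0.10 over the members and 0.01 over all genes, and the median size of the change was 0.26 and 0.34. Scaling by library totals lowers the median of all genes by 0.05 here, and gave 6 members higher and 15 lower.

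Between LPS plus BHB and control, which uses the libraries of both comparisons above, 18 members were higher and 12 lower, where 38% of all genes were called higher and 40.4% lower. A called change of at least 2-fold was found for 10 members, 6 higher and 4 lower, and for 41.5% of all genes. With library totals it was 2 higher, Sqstm1 and Optn, and those lower were Ulk2, Uvrag, Atg7, Atg10, Map1lc3b and Gabarap. Scaling by library totals lowers the median of all genes by 0.33 here, and the members' split becomes 11 higher and 17 lower. Without control replicates 2 and 3 the split was 17 higher and 10 lower.

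**Figure D2:**
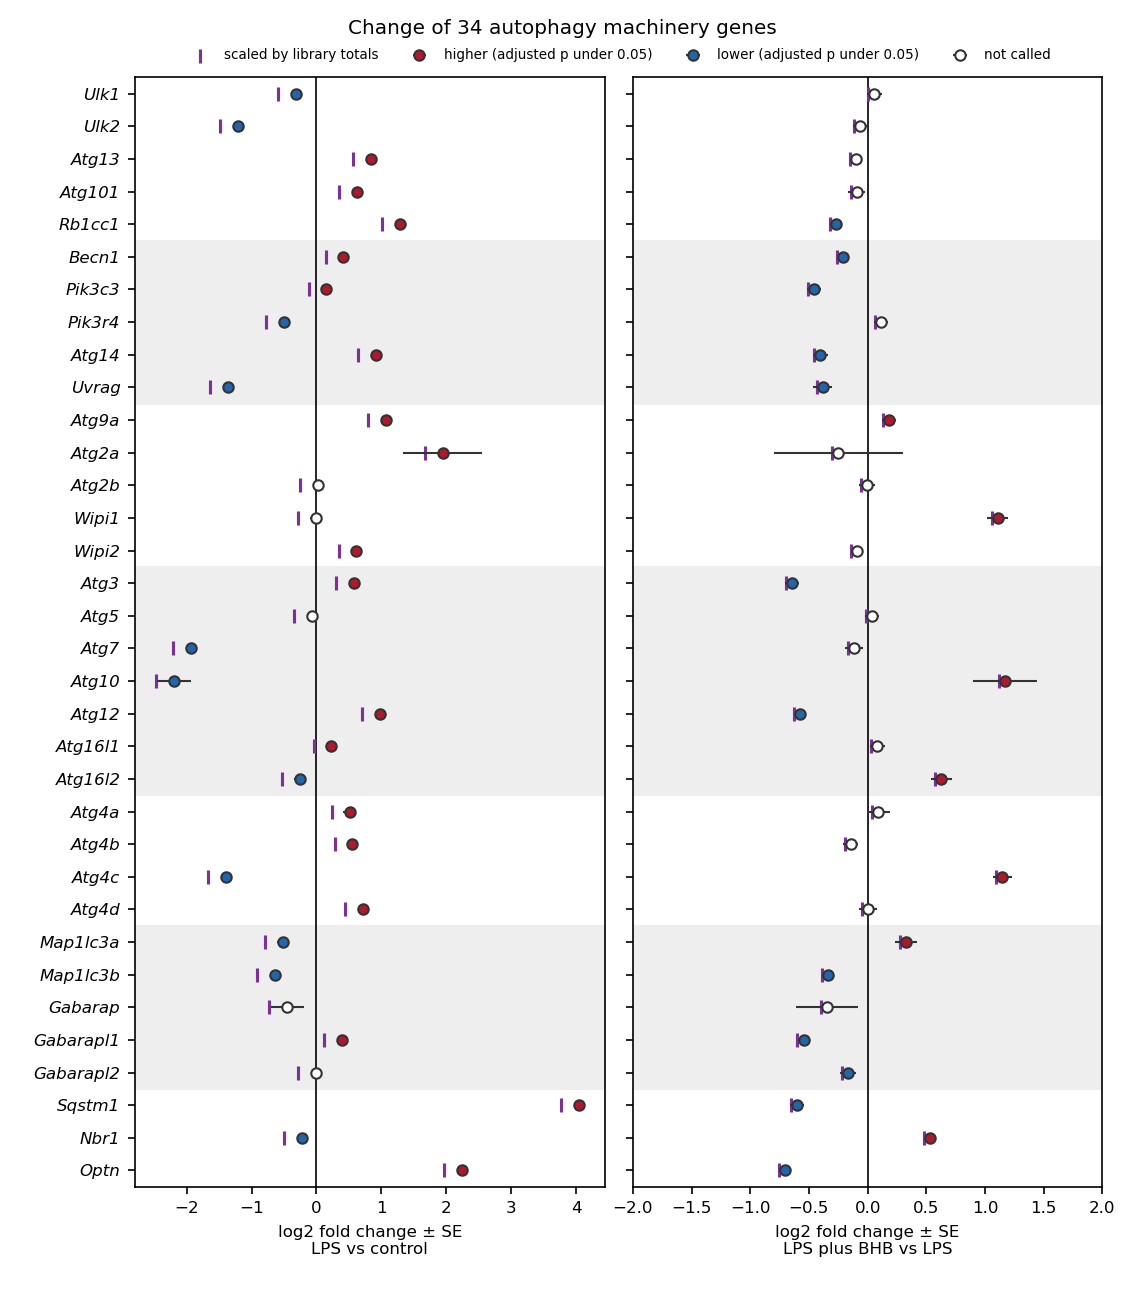
Log2 fold change ± SE of each of the 34 members in LPS against control (left) and LPS plus BHB against LPS (right), red where called higher, blue where called lower and white where not called, with a purple tick where the change falls if libraries are scaled by their totals. In LPS against control 18 members were called higher and 11 lower, from 4.04 for Sqstm1 to -2.19 for Atg10, and in LPS plus BHB against LPS 7 were called higher and 12 lower, from 1.17 for Atg10 to -0.70 for Optn.

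In the initiation kinase complex LPS raised the scaffold and adaptor genes and lowered both kinase genes, and in LPS plus BHB against LPS only Rb1cc1 was called. Rb1cc1, which encodes the large scaffold FIP200, had 126, 131 and 121 CPM in LPS plus BHB libraries, 147, 146 and 162 CPM in LPS libraries and 61.8, 60.5 and 64.2 CPM in control libraries. The 3 groups do not overlap, with LPS highest and control lowest. Its log2 fold change was 1.29 (SE 0.05, adjusted p = 2.53e-15) in LPS against control, a 2.44-fold rise, and -0.27 (SE 0.05, adjusted p = 0.000143) in LPS plus BHB against LPS. Of its exon sequence 12.8% of 31-base words also occur in other genes, of which the pseudogene Gm13961 shares the most. Ulk2, which encodes a kinase of the complex, had 36.3, 36.8 and 32.8 CPM in LPS plus BHB libraries, 36.8, 36.3 and 37.9 CPM in LPS libraries and 86.4, 84.1 and 86.4 CPM in control libraries. All 6 libraries with LPS lay far below the control libraries and overlapped each other. Ulk2 was 2.32-fold lower in LPS than in control (log2 fold change -1.21, SE 0.06, adjusted p = 3.12e-14) and differed by -0.07 (adjusted p = 0.363) between LPS plus BHB and LPS.

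Ulk1, the kinase through which AMPK and mTORC1 act on autophagy, had 65.3, 68.9 and 72.3 CPM in LPS plus BHB libraries, 61.6, 62.0 and 75.0 CPM in LPS libraries and 84.1, 81.2 and 82.5 CPM in control libraries. Both groups with LPS lay below control, and overlapped with each other. The fall with LPS was 19.9% (log2 fold change -0.32, SE 0.07, adjusted p = 0.000166), and LPS plus BHB against LPS gave 0.06 (adjusted p = 0.501), which passed the threshold only without LPS replicate 3 (adjusted p = 0.0487). The adaptor genes Atg13 and Atg101 rose 1.79-fold and 1.55-fold with LPS (adjusted p = 1.81e-13 and 1.26e-07). With LPS plus BHB against LPS they had log2 fold changes of -0.10 (adjusted p = 0.0528) and -0.09 (adjusted p = 0.315), and the change of Atg13 passed the threshold without LPS replicate 3 (adjusted p = 0.0440) and in DESeq2 (adjusted p = 0.0314), with its size factors (adjusted p = 0.0368) and with library totals (adjusted p = 0.00466).

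In the class III PI3-kinase complex LPS raised Atg14 and lowered Uvrag, which mark its 2 alternative forms. In LPS plus BHB against LPS 4 of the 5 genes were lower, where 24.4% of all genes were called lower. Atg14 directs the complex to new autophagosomes and averaged 35.6 ± 2.48 CPM in LPS plus BHB, 47.1 ± 0.848 CPM in LPS and 24.9 ± 0.892 CPM in control. It rose 1.89-fold with LPS (adjusted p = 4.24e-11) and was 24.4% lower with BHB added (adjusted p = 2.42e-05). Uvrag belongs to the form that acts on endosomes and late autophagy and had 18.6, 17.2 and 21.1 CPM in LPS plus BHB libraries, 22.8, 23.8 and 27.6 CPM in LPS libraries and 63.3, 64.4 and 63.6 CPM in control libraries. Control libraries lay far above the others, and LPS plus BHB lay below LPS without overlap. The fall was 2.58-fold in LPS against control (log2 fold change -1.37, SE 0.08, adjusted p = 8.78e-13), a further -0.38 (SE 0.08, adjusted p = 0.000617) in LPS plus BHB against LPS, and 3.37-fold in LPS plus BHB against control. Antisense gene Gm45187 covers 17.6% of the Uvrag exons, and without strand information its reads cannot be told apart from those of Uvrag.

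Becn1 encodes Beclin 1, the core subunit that BCL2 proteins restrain. It had 105, 103.5 and 107 CPM in LPS plus BHB libraries, 119.9, 122 and 123 CPM in LPS libraries and 90.6, 92.3 and 90.7 CPM in control libraries. The groups do not overlap. The log2 fold change was 0.42 (SE 0.04, adjusted p = 1.54e-08) in LPS against control and -0.21 (SE 0.04, adjusted p = 0.000320) in LPS plus BHB against LPS. For LPS plus BHB against control it was 0.21 (adjusted p = 0.000199), which turns to -0.12 (adjusted p = 0.0149) with library totals. Cntd1 lies antisense over 43.9% of the Becn1 exons. Pik3c3, the catalytic subunit, averaged 38.1 ± 1.73 CPM in LPS plus BHB, 52.3 ± 1.37 CPM in LPS and 47.0 ± 1.23 CPM in control. It fell by 27.2% in LPS plus BHB against LPS (adjusted p = 1.23e-06). In LPS against control it rose by 0.15 on the log2 scale (adjusted p = 0.0184), a call that turns to -0.12 (adjusted p = 0.0535) with library totals and is lost without control replicate 3 (adjusted p = 0.0696) or without control replicates 2 and 3 (adjusted p = 0.141). Pik3r4, the regulatory subunit, fell by 29.3% with LPS (adjusted p = 2.63e-07), and LPS plus BHB against LPS gave 0.11 (adjusted p = 0.148).

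Among the genes for lipid supply and PI3P binding, LPS raised Atg9a, Wipi2 and Atg2a, and BHB raised Wipi1. Atg9a encodes the lipid scramblase of the vesicles that seed autophagosomes, and had 117, 127 and 117 CPM in LPS plus BHB libraries, 111, 109 and 97.1 CPM in LPS libraries and 49.6, 54.0 and 47.7 CPM in control libraries. The groups do not overlap, and LPS plus BHB was highest. It rose 2.10-fold with LPS (log2 fold change 1.07, SE 0.06, adjusted p = 8.20e-13). Its change in LPS plus BHB against LPS, 0.18 (SE 0.06, adjusted p = 0.0128), was not called with library totals (adjusted p = 0.0584), without LPS replicate 3 (adjusted p = 0.129) or without LPS plus BHB replicate 2 (adjusted p = 0.0722). The same-strand gene Gm29253 and the antisense gene Ankzf1 overlap Atg9a. Of its exon bases 31.8% lie under a gene on the same strand and 0.798% under one on the other, so part of its reads may belong to them.

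Wipi1, a PI3P-binding protein, had 29.6, 28.4 and 32.8 CPM in LPS plus BHB libraries, 14.7, 13.5 and 13.9 CPM in LPS libraries and 12.9, 14.9 and 14.6 CPM in control libraries. LPS plus BHB libraries lay far above all others, and the LPS and control libraries overlapped. It rose 2.15-fold in LPS plus BHB against LPS (log2 fold change 1.11, SE 0.09, adjusted p = 9.65e-10), whereas LPS against control gave -0.01 (SE 0.09, adjusted p = 0.960), and -0.28 (adjusted p = 0.00720) with library totals. Its relative Wipi2 rose 1.53-fold with LPS (adjusted p = 6.77e-11) and gave -0.09 (adjusted p = 0.101) in LPS plus BHB against LPS, called with library totals (adjusted p = 0.0109).

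Atg2a had 2.48, 3.27 and 0.776 CPM in LPS plus BHB libraries, 2.54, 1.29 and 3.92 CPM in LPS libraries and 0.901, 0.830 and 0.276 CPM in control libraries. These rest on 10 to 111 counts per library, and the spread within a group is wide. The log2 fold change in LPS against control was 1.94 (SE 0.61, adjusted p = 0.0132), and it was not called without control replicates 2 and 3 (adjusted p = 0.137). The rise in LPS plus BHB against control, 1.70 (adjusted p = 0.0270), was lost in the replicate block fit (adjusted p = 0.0646), with library totals (adjusted p = 0.0578) and without control replicate 2 (adjusted p = 0.0530), control replicate 3 (adjusted p = 0.0676), LPS plus BHB replicate 1 (adjusted p = 0.0760) or LPS plus BHB replicate 2 (adjusted p = 0.0916). Without control replicates 2 and 3 it was 1.27 (adjusted p = 0.210). Its relative Atg2b averaged 41.3 ± 3.30, 41.5 ± 1.95 and 41.1 ± 0.886 CPM in LPS plus BHB, LPS and control, and was called in no comparison. With library totals Atg2b was lower in LPS than in control, by -0.26 (adjusted p = 0.00125).

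Conjugation enzymes moved apart in LPS against control, with the largest falls of all members, Atg10 and Atg7, beside rises of Atg12, Atg3 and Atg16l1. Atg7, the E1-like enzyme that activates both ATG12 and the LC3 proteins, had 20.3, 18.8 and 20.2 CPM in LPS plus BHB libraries, 19.2, 24.2 and 21.2 CPM in LPS libraries and 83.8, 81.4 and 82.2 CPM in control libraries. Both groups with LPS lay far below control and overlapped each other. The fall in LPS against control was 3.84-fold (log2 fold change -1.94, SE 0.07, adjusted p = 5.99e-16), and LPS plus BHB against LPS gave -0.12 (SE 0.08, adjusted p = 0.213), called only without LPS replicate 1 (adjusted p = 0.0459). Atg10, the E2-like enzyme for ATG12, had 1.32, 2.26 and 2.15 CPM in LPS plus BHB libraries, 0.890, 0.769 and 0.884 CPM in LPS libraries and 3.35, 4.26 and 4.08 CPM in control libraries. The groups do not overlap, and LPS plus BHB lay between the others, on 22 to 159 counts per library. It was 4.58-fold lower in LPS than in control (log2 fold change -2.19, SE 0.26, adjusted p = 1.17e-07) and 2.24-fold higher in LPS plus BHB than in LPS (log2 fold change 1.17, SE 0.27, adjusted p = 0.00117). The fall that remained in LPS plus BHB against control, -1.03 (adjusted p = 0.000483), was -0.80 (adjusted p = 0.0600) without control replicates 2 and 3.

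Atg3, the E2-like enzyme for the LC3 proteins, averaged 44.5 ± 1.83 CPM in LPS plus BHB, 69.6 ± 4.998 CPM in LPS and 46.6 ± 0.811 CPM in control. It rose 1.49-fold with LPS (adjusted p = 1.59e-08) and was 36.0% lower in LPS plus BHB than in LPS (log2 fold change -0.64, SE 0.06, adjusted p = 1.50e-08). LPS plus BHB libraries overlapped control libraries (log2 fold change -0.07, adjusted p = 0.310), and were lower with library totals (-0.39, adjusted p = 5.90e-06). Atg12, the ubiquitin-like protein that is joined to ATG5, averaged 90.1 ± 3.88 CPM in LPS plus BHB, 134 ± 5.71 CPM in LPS and 68.1 ± 0.360 CPM in control. It rose 1.97-fold with LPS (adjusted p = 8.27e-14), was 32.8% lower with BHB added (adjusted p = 3.00e-09), and stayed above control in LPS plus BHB by 0.40 on the log2 scale (adjusted p = 1.94e-07), a difference of 0.08 (adjusted p = 0.146) with library totals.

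Atg5, the partner of ATG12 in the conjugate, had 45.3, 45.5 and 44.4 CPM in LPS plus BHB libraries, 44.0, 41.9 and 45.8 CPM in LPS libraries and 44.9, 46.1 and 47.9 CPM in control libraries. The 3 groups overlap, and no comparison was called, with log2 fold changes of -0.08 (SE 0.06, adjusted p = 0.224) in LPS against control and 0.04 (SE 0.06, adjusted p = 0.619) in LPS plus BHB against LPS. With library totals Atg5 was lower in LPS than in control, by -0.35 (adjusted p = 1.24e-05). Atg16l1, the scaffold that places the conjugate on the membrane, averaged 47.3 ± 2.03 CPM in LPS plus BHB, 44.6 ± 2.18 CPM in LPS and 38.0 ± 1.96 CPM in control. Its rise with LPS, 0.23 on the log2 scale (adjusted p = 0.00216), turns to -0.04 (adjusted p = 0.529) with library totals and was not called without control replicates 2 and 3 (adjusted p = 0.135), and its rise of 0.31 (adjusted p = 0.000117) in LPS plus BHB against control turns to -0.01 with library totals. Atg16l2, a paralog of Atg16l1, averaged 22.2 ± 2.21 CPM in LPS plus BHB, 14.4 ± 1.04 CPM in LPS and 17.1 ± 0.767 CPM in control. It rose 1.54-fold in LPS plus BHB against LPS (adjusted p = 6.95e-06). Its fall with LPS, -0.25 (adjusted p = 0.0165), was not called without control replicate 1 (adjusted p = 0.0605), without LPS replicate 2 (adjusted p = 0.105) or without control replicates 2 and 3 (adjusted p = 0.0509).

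ATG4 proteases trim LC3 and GABARAP proteins before conjugation and release them afterwards. Atg4c had 26.7, 27.0 and 30.9 CPM in LPS plus BHB libraries, 12.7, 13.0 and 12.6 CPM in LPS libraries and 35.1, 32.4 and 33.0 CPM in control libraries. LPS libraries were lowest, LPS plus BHB libraries lay close below control, and the groups do not overlap. Atg4c fell 2.63-fold with LPS (log2 fold change -1.39, SE 0.08, adjusted p = 7.53e-13) and was 2.21-fold higher in LPS plus BHB than in LPS (log2 fold change 1.15, SE 0.08, adjusted p = 1.78e-10). Between LPS plus BHB and control it was 15.8% lower (adjusted p = 0.00438). The other ATG4 genes moved the opposite way with LPS: Atg4d rose 1.64-fold, Atg4b 1.47-fold and Atg4a 1.43-fold (adjusted p = 3.84e-08, 7.40e-08 and 6.81e-05). None of these 3 was called in LPS plus BHB against LPS, where Atg4b, at -0.14 (adjusted p = 0.0621), passed the threshold with DESeq2 size factors (adjusted p = 0.0479), in the fit of the 6 libraries compared (adjusted p = 0.0493), with library totals (adjusted p = 0.0127) and without LPS plus BHB replicate 2 (adjusted p = 0.0392). Atg4a is uncertain because 60.8% of its 31-base words also occur in other genes, of which the pseudogene Atg4a-ps shares the most. Kri1 lies antisense over 19.3% of the Atg4d exons.

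Of the LC3 and GABARAP genes, LPS lowered both LC3 genes and raised Gabarapl1, and BHB lowered Map1lc3b and Gabarapl1 and raised Map1lc3a. Map1lc3b encodes LC3B, the usual marker of autophagosomes, and had 82.7, 77.8 and 78.2 CPM in LPS plus BHB libraries, 99.7, 96.1 and 106 CPM in LPS libraries and 159, 160.0 and 152 CPM in control libraries. The groups step down from control to LPS to LPS plus BHB with no overlap. The fall was 36.0% in LPS against control (log2 fold change -0.64, SE 0.05, adjusted p = 7.66e-11), 20.8% in LPS plus BHB against LPS (-0.34, SE 0.05, adjusted p = 6.51e-06) and 49.3% in LPS plus BHB against control (adjusted p = 8.03e-14). Map1lc3a, which encodes LC3A, averaged 16.1 ± 1.07 CPM in LPS plus BHB, 12.9 ± 0.758 CPM in LPS and 18.5 ± 1.39 CPM in control. It fell by 30.3% with LPS (adjusted p = 2.66e-05) and was 25.2% higher in LPS plus BHB than in LPS (adjusted p = 0.00626). Against control, LPS plus BHB gave -0.20 (adjusted p = 0.0520), which was called with library totals (-0.52, adjusted p = 2.78e-05), without control replicate 2 (adjusted p = 0.0359), without LPS plus BHB replicate 3 (adjusted p = 0.0339) and without control replicates 2 and 3 (adjusted p = 0.0449).

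Gabarapl1 averaged 158 ± 1.14 CPM in LPS plus BHB, 230.5 ± 10.5 CPM in LPS and 176 ± 3.04 CPM in control. It rose 1.31-fold with LPS (adjusted p = 4.69e-08) and was 31.5% lower in LPS plus BHB than in LPS (adjusted p = 1.37e-09). Against control, LPS plus BHB was lower by 10.2% (adjusted p = 0.00296), not called without control replicates 2 and 3 (adjusted p = 0.0647). The antisense gene 1700101I11Rik covers 28.3% of the Gabarapl1 exons. Gabarapl2 averaged 30.9 ± 1.55 CPM in LPS plus BHB, 34.7 ± 1.06 CPM in LPS and 34.9 ± 2.16 CPM in control. Its fall in LPS plus BHB against LPS, -0.17 (adjusted p = 0.0488), lies at the threshold and was not called in the replicate block fit (adjusted p = 0.0636) or without the filter on low counts (adjusted p = 0.0502). It was also lost without control replicate 2 or 3, LPS replicate 1 or 2, or LPS plus BHB replicate 2 or 3, at adjusted p from 0.0514 to 0.148, and without control replicates 2 and 3 together (adjusted p = 0.0614). Its fall in LPS plus BHB against control, -0.18 (adjusted p = 0.0216), was lost without control replicate 2 or 3 or LPS plus BHB replicate 2 or 3 (adjusted p from 0.0511 to 0.105) and in DESeq2 (adjusted p = 0.0562), and was -0.07 (adjusted p = 0.521) without control replicates 2 and 3. Of its exon sequence, 15.3% of its 31-base words also occur in other genes. Gabarap had 1.70, 1.67 and 1.80 CPM in LPS plus BHB libraries, 2.28, 2.34 and 1.94 CPM in LPS libraries and 4.31, 2.22 and 2.46 CPM in control libraries, with control replicate 1 far above the others. Its 48 to 153 counts per library are few, none of its 31-base words occurs in another gene, and the counting program is not given, so whether the low count reflects expression or the counting was not tested. Its fall in LPS plus BHB against control, -0.80 (adjusted p = 0.00818), was not called without control replicate 1 (-0.44, adjusted p = 0.127), and was -1.32 (adjusted p = 0.000697) without control replicates 2 and 3. In LPS against control, -0.45 (adjusted p = 0.107), it was called without control replicate 2 (adjusted p = 0.0392), without control replicates 2 and 3 (-0.97, adjusted p = 0.00747) and with library totals (adjusted p = 0.0128).

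Of the cargo receptors, Sqstm1 changed most of all members with LPS, and Sqstm1 and Optn had the largest rises. Sqstm1 encodes p62, which binds ubiquitin and LC3 and is itself degraded by autophagy. It had 6926, 6741 and 5902 CPM in LPS plus BHB libraries, 10072, 9913 and 9724 CPM in LPS libraries and 551, 635 and 617 CPM in control libraries. The 3 groups lie far apart. Sqstm1 rose 16.5-fold in LPS against control (log2 fold change 4.04, SE 0.07, adjusted p = 3.48e-21) and was 34.1% lower in LPS plus BHB than in LPS (log2 fold change -0.60, SE 0.06, adjusted p = 7.15e-08), which left it 10.9-fold above control (log2 fold change 3.44). Against control replicate 1 alone the rise with LPS was 4.17. Mrnip lies antisense over 17.3% of the Sqstm1 exons. Optn encodes optineurin, a receptor for bacteria and damaged mitochondria, and had 76.8, 78.0 and 78.7 CPM in LPS plus BHB libraries, 122, 124 and 134 CPM in LPS libraries and 27.0, 27.6 and 25.6 CPM in control libraries. These groups do not overlap either. It rose 4.75-fold with LPS (log2 fold change 2.25, SE 0.05, adjusted p = 3.31e-19) and was 38.6% lower in LPS plus BHB than in LPS (log2 fold change -0.70, SE 0.05, adjusted p = 2.24e-10), the largest fall of any member in that comparison. Nbr1, a receptor that works with p62, went the other way. It averaged 222 ± 7.54 CPM in LPS plus BHB, 153 ± 1.59 CPM in LPS and 179 ± 4.16 CPM in control, a fall of 14.2% with LPS (adjusted p = 7.90e-05) and a 1.45-fold rise with BHB added (adjusted p = 1.41e-09). Its rise of 0.31 (adjusted p = 9.47e-07) in LPS plus BHB against control turns to -0.01 (adjusted p = 0.776) with library totals.

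**Figure D3:**
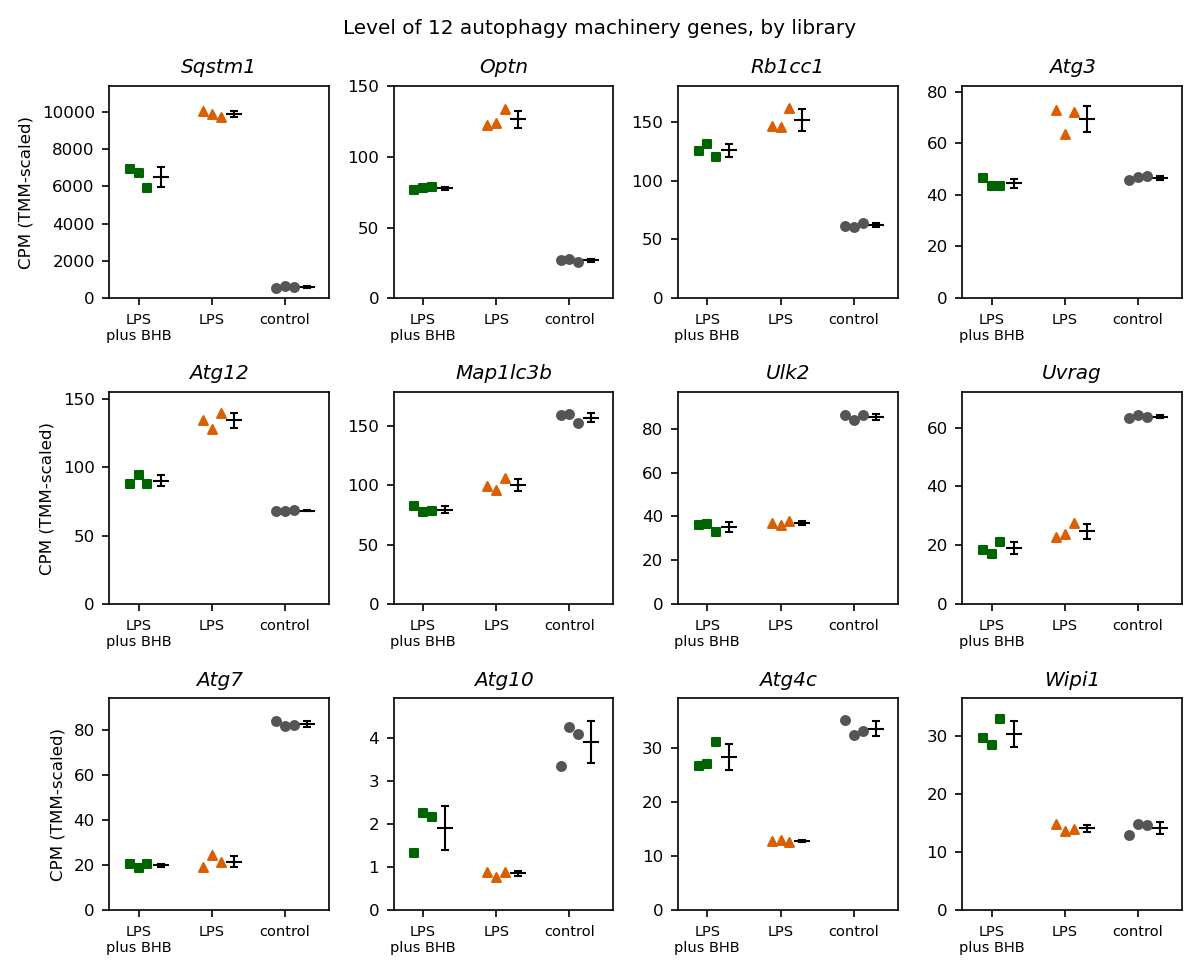
TMM-scaled CPM of 12 members in each library (points) with the mean ± SD of the 3 libraries of a group (bars), LPS plus BHB at the left, LPS in the middle and control at the right of each panel, with the axis starting at 0. Sqstm1, Optn, Rb1cc1, Atg3 and Atg12 are highest in LPS, Map1lc3b, Ulk2, Uvrag, Atg7, Atg10 and Atg4c are highest in control, and Wipi1 is highest in LPS plus BHB.

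LPS against control and LPS plus BHB against LPS share the LPS libraries, so opposite signs in them are not independent, and the members' changes are set side by side without a test. Sqstm1 stood 3.44 above control on the log2 scale in LPS plus BHB and 4.04 in LPS, Optn 1.54 and 2.25, Rb1cc1 1.02 and 1.29, Atg14 0.51 and 0.92, and Atg12 0.40 and 0.98. Atg9a stood at 1.25 in LPS plus BHB and 1.07 in LPS, further from control with BHB. Among the members that LPS lowered, Atg4c stood at -0.25 against control in LPS plus BHB and -1.39 in LPS, and Atg10 at -1.03 and -2.19. Further from control with BHB were Uvrag, at -1.75 and -1.37, and Map1lc3b, at -0.98 and -0.64. The level of Atg7 was -2.06 against control in LPS plus BHB and -1.94 in LPS, that of Ulk2 -1.28 and -1.21, that of Pik3r4 -0.39 and -0.50, and that of Ulk1 -0.26 and -0.32. Some members lay on opposite sides of control in the 2 groups. In the same order Gabarapl1 stood at -0.16 and 0.39, and Pik3c3 at -0.30 and 0.15. Nbr1 stood at 0.31 and -0.22, and Atg16l2 at 0.38 and -0.25. All of these differences from control were called. Alternatives named above lost those of Atg12, Atg10, Gabarapl1 and Nbr1 in LPS plus BHB, and of Pik3c3 and Atg16l2 in LPS. That of Atg16l2 in LPS plus BHB was lost with library totals (adjusted p = 0.616). Against a fold of 1.5 with glmTreat, Ulk1, Pik3r4, Gabarapl1, Pik3c3, Nbr1 and Atg16l2 were called in neither group. Under that test Atg12, Atg14 and Atg4c were also not called in LPS plus BHB, nor Map1lc3b in LPS.

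Paralogs moved unequally, which changed the make-up of their families. As a share of the reads per kilobase of the 2 ULK kinase genes, Ulk1 made up 62.4 to 67.0% in LPS plus BHB libraries, 60.7 to 64.6% in LPS libraries and 46.8 to 47.3% in control libraries. The 2 WIPI genes shifted with BHB, with Wipi1 at 39.5 ± 2.10% in LPS plus BHB, 22.2 ± 0.709% in LPS and 30.5 ± 2.33% in control. Among the ATG4 genes Atg4c had the largest share in control and the largest swing, at 35.9 ± 2.42% in LPS plus BHB, 19.97 ± 0.643% in LPS and 49.4 ± 1.55% in control. Atg4b took the largest share in LPS libraries, at 32.8 ± 0.874%, against 24.1 ± 1.01% in LPS plus BHB and 20.98 ± 0.547% in control. The order of these 2 genes rests on their merged exon lengths, 8278 bases for Atg4b and 3351 for Atg4c. By CPM, without lengths, Atg4b stood above Atg4c in every group. They averaged 46.8 and 28.2 in LPS plus BHB, 51.7 and 12.7 in LPS, and 35.2 and 33.5 in control. All ATG4 shares also include the counts of Atg4a, which are uncertain as described above. Atg16l1 made up 65.2 ± 3.12% of the 2 ATG16L genes in LPS plus BHB, 73.2 ± 0.558% in LPS and 66.2 ± 0.377% in control. Within the LC3 and GABARAP genes Gabarapl1 led at 67.1 ± 0.999%, 73.9 ± 0.507% and 62.1 ± 0.615% in the same order of groups. Map1lc3b made up 9.06 ± 0.230% in LPS plus BHB, 8.63 ± 0.152% in LPS and 14.9 ± 0.177% in control. The size of a share depends on the merged exon lengths, 7517 bases for Map1lc3b and 2013 for Gabarapl1. By CPM, without lengths, Map1lc3b and Gabarapl1 averaged 79.6 and 158 in LPS plus BHB, 101 and 230 in LPS, and 157 and 176 in control. Each share named above did not overlap between LPS and control, at p = 0.1 in a two-sided exact permutation test, the smallest p that 3 against 3 libraries allow. Those of Gabarap and Gabarapl2 did overlap (exact p = 0.2 each). Between LPS plus BHB and LPS the Ulk1 share overlapped (exact p = 0.4), as did that of Gabarap (exact p = 0.9), and the other shares named above did not (exact p = 0.1). Shares in other gene families were not computed. Of all genes, 38.4% were called higher and 41.4% lower in LPS against control. Atg2a and Atg2b had the least certain shares, with Atg2a at 3.28 to 11.2% in LPS plus BHB, 4.96 to 14.1% in LPS and 1.15 to 3.64% in control.

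**Figure D4:**
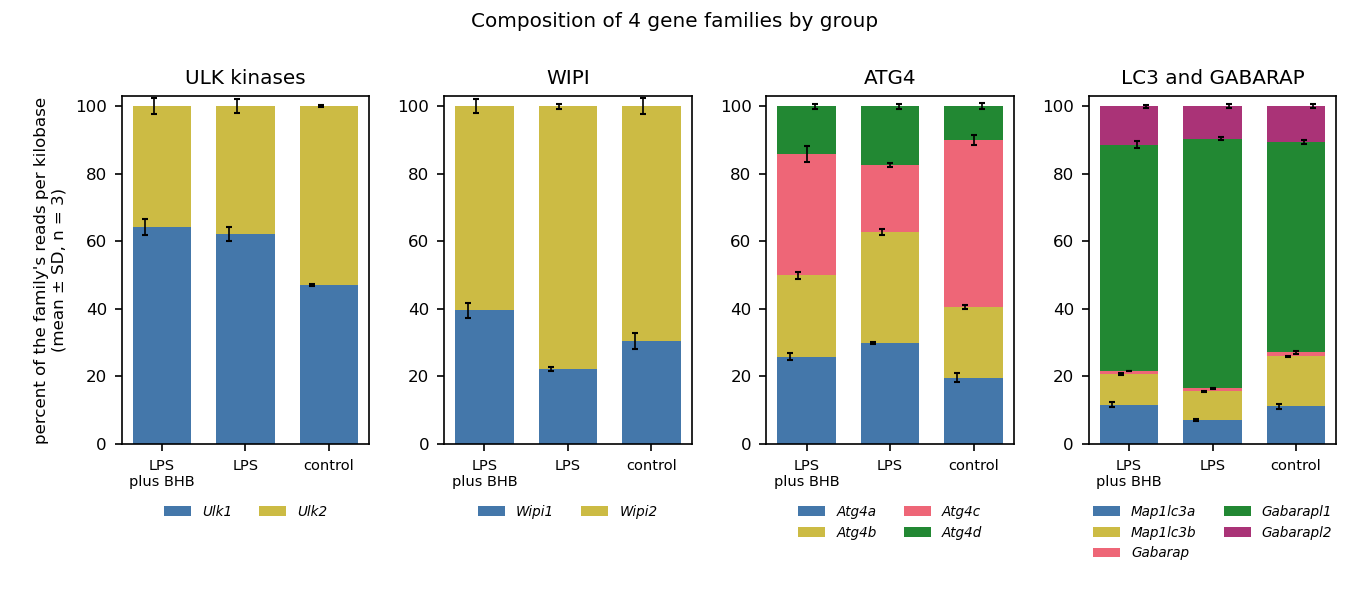
Composition of the ULK, WIPI, ATG4 and LC3 and GABARAP families, as the mean percent of the family's reads per kilobase in each group (stacked bars, error bars SD over 3 libraries), with LPS plus BHB at the left and control at the right. Wipi1 takes 39.5% of the WIPI genes in LPS plus BHB and 22.2% in LPS, and Atg4c takes 35.9% of the ATG4 genes in LPS plus BHB, 19.97% in LPS and 49.4% in control.

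Among transcription factors known to act on autophagy genes, Tfeb fell with LPS and its relative Tfec rose. Of 15 listed, 7 were higher and 7 lower with LPS than in control, which is 46.7% each way, against 38.4% and 41.4% of all genes. In LPS plus BHB against LPS 10 were higher and 4 lower, or 66.7% and 26.7% against 26.4% and 24.4% of all genes, with a median log2 fold change of 0.40 against 0.01 over all genes. Tfeb, the main activator of lysosome and autophagy genes, averaged 20.6 CPM in LPS plus BHB, 26.6 CPM in LPS and 90.5 CPM in control. It fell by 1.77 on the log2 scale with LPS (adjusted p = 2.29e-16) and by a further 0.37 in LPS plus BHB against LPS (adjusted p = 9.44e-05). Its relative Tfec rose in LPS against control, averaging 230 CPM in LPS and 11.9 CPM in control (log2 fold change 4.27, adjusted p = 1.19e-19). Another relative, Mitf, rose in LPS plus BHB against LPS, averaging 594 CPM in LPS plus BHB and 275 CPM in LPS (log2 fold change 1.11, adjusted p = 4.55e-14). Values of Tfe3, a further relative on the list, are not given here. Ddit3, which encodes the stress factor CHOP, averaged 240.5 CPM in LPS plus BHB, 353 CPM in LPS and 23.6 CPM in control, a rise of 3.90 with LPS. Hif1a, the hypoxia-inducible factor, averaged 1260 CPM in LPS plus BHB, 439 CPM in LPS and 133 CPM in control, a rise of 1.52 (adjusted p = 6.97e-16) in LPS plus BHB against LPS. In LPS plus BHB against control 9 of the 15 were higher and 4 lower, or 60% and 26.7% against 38% and 40.4% of all genes.

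The mTORC1 and AMPK pathways, which govern ULK1, were described by 35 genes, of which 12 were higher and 16 lower with LPS than in control. These are 34.3% and 45.7%, near the 38.4% and 41.4% of all genes. Compared with LPS, LPS plus BHB had 6 higher and 16 lower, or 17.1% and 45.7% against 26.4% and 24.4% of all genes, with a median log2 fold change of -0.14 against 0.01. Set against control, LPS plus BHB had 11 higher and 19 lower, or 31.4% and 54.3% against 38% and 40.4% of all genes, and 4 higher with library totals. Sesn1 and Sesn2, genes of sestrins, which restrain mTORC1 when leucine is scarce, moved in opposite directions with LPS. Sesn1 averaged 8.82 CPM in LPS and 187 CPM in control (log2 fold change -4.41, SE 0.08, adjusted p = 2.45e-21), and Sesn2 averaged 204 CPM in LPS and 21.1 CPM in control (log2 fold change 3.27, SE 0.06, adjusted p = 2.67e-21). Ddit4, the mTORC1 inhibitor REDD1, averaged 86.1 CPM in LPS plus BHB, 28.8 CPM in LPS and 2.61 CPM in control, a rise of 1.58 (adjusted p = 4.50e-14) in LPS plus BHB against LPS. Flcn, folliculin, averaged 63.6 CPM in LPS plus BHB and 109 CPM in LPS (log2 fold change -0.78, adjusted p = 2.06e-10). Mtor itself averaged 35.9 CPM in LPS plus BHB, 41.7 CPM in LPS and 36.4 CPM in control. It was 0.21 lower on the log2 scale in LPS plus BHB than in LPS (adjusted p = 0.00829), and its rise of 0.19 with LPS (adjusted p = 0.00862) turns to -0.08 with library totals (adjusted p = 0.237) and is not called without control replicate 3 (adjusted p = 0.0600) or without control replicates 2 and 3 (0.10, adjusted p = 0.338).

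Of 15 genes for fusion of autophagosomes with lysosomes, 8 were higher and 5 lower with LPS than in control, or 53.3% and 33.3% against 38.4% and 41.4% of all genes, and this split turns to 3 and 8 with library totals. Compared with LPS, LPS plus BHB had 2 higher and 6 lower, or 13.3% and 40.0% against 26.4% and 24.4% of all genes, with 1 higher without LPS replicate 1 or without LPS replicate 2. Set against control, LPS plus BHB had 4 higher and 8 lower, or 26.7% and 53.3% against 38% and 40.4%, and 2 higher with library totals. Plekhm1, an adaptor between LC3, RAB7 and the HOPS tethering complex, averaged 68.5 CPM in LPS plus BHB, 68.1 CPM in LPS and 276 CPM in control, a fall of 2.02 on the log2 scale with LPS (adjusted p = 1.53e-19). The HOPS subunit Vps39 averaged 53.1 CPM in LPS and 115 CPM in control (log2 fold change -1.12, adjusted p = 1.65e-13). The lysosome transport adaptor Plekhm2 averaged 94.5 CPM in LPS plus BHB and 182 CPM in control (log2 fold change -0.95, adjusted p = 3.45e-14). With BHB added to LPS, the HOPS subunit Vps33a averaged 53.0 CPM in LPS plus BHB and 101 CPM in LPS (log2 fold change -0.92, adjusted p = 4.89e-12), and the SNARE Snap29 averaged 71.1 CPM in LPS plus BHB and 102 CPM in LPS (log2 fold change -0.52, adjusted p = 1.25e-08).

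Of 18 further cargo receptors and their kinases, 6 were higher and 10 lower with LPS than in control, or 33.3% and 55.6% against 38.4% and 41.4% of all genes. With BHB added to LPS 7 were higher and 4 lower, or 38.9% and 22.2% against 26.4% and 24.4%. Set against control, LPS plus BHB had 6 higher and 10 lower, where all genes had 38% and 40.4%. Bnip3, a receptor for mitochondria, averaged 143 CPM in LPS plus BHB, 25.8 CPM in LPS and 18.7 CPM in control, a rise of 2.47 (SE 0.07, adjusted p = 5.92e-17) in LPS plus BHB against LPS. Pink1, the kinase that marks damaged mitochondria, averaged 30.8 CPM in LPS and 104 CPM in control (log2 fold change -1.75, adjusted p = 1.14e-16). Tollip, a ubiquitin-binding adaptor, averaged 155 CPM in LPS plus BHB, 231 CPM in LPS and 97.2 CPM in control, which is a rise of 1.25 with LPS and a fall of 0.57 with BHB added (adjusted p = 1.28e-16 and 3.30e-10). Tbk1, the kinase of optineurin and p62, averaged 238 CPM in LPS plus BHB and 99.2 CPM in control (log2 fold change 1.26, adjusted p = 4.54e-16).

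Among 16 other core autophagy genes, 7 were higher and 8 lower with LPS than in control, or 43.8% and 50%, near the 38.4% and 41.4% of all genes. With BHB added to LPS 6 were higher and 3 lower, or 37.5% and 18.8% against 26.4% and 24.4%, and 5 were lower with library totals. Set against control, LPS plus BHB had 7 higher and 9 lower, or 43.8% and 56.2% against 38% and 40.4%. Tecpr1, which binds the ATG12 to ATG5 conjugate, averaged 56.0 CPM in LPS plus BHB, 116 CPM in LPS and 296 CPM in control, a fall of 1.05 in LPS plus BHB against LPS (adjusted p = 1.34e-10) and of 2.40 against control (adjusted p = 6.52e-17). Tbc1d14, which acts on the recycling endosomes that hold ULK1, averaged 32.7 CPM in LPS plus BHB, 27.8 CPM in LPS and 104 CPM in control. Tbc1d5, which inactivates RAB7, averaged 18.6 CPM in LPS and 54.3 CPM in control (log2 fold change -1.55, adjusted p = 1.19e-14). Ei24 averaged 34.1 CPM in LPS plus BHB and 26.2 CPM in LPS (log2 fold change 0.38, adjusted p = 3.38e-05). Of the 6 BCL2 family genes whose proteins bind Beclin 1 or its partners, 2 were higher and 4 lower with LPS than in control, where all genes had 38.4% and 41.4%, and 1 was higher with library totals, without control replicate 3 or without control replicates 2 and 3. With BHB added to LPS 1 was higher and 2 lower, where all genes had 26.4% and 24.4%. The 1 higher, Mcl1, was not called with DESeq2 size factors, with library totals, without the filter, in the replicate block fit, in the fit of 6 libraries, without control replicate 2, LPS replicate 1 or 2 or any LPS plus BHB replicate, or without control replicates 2 and 3. Set against control, LPS plus BHB had 1 higher and 5 lower, where all genes had 38% and 40.4%. Bcl2l1, the gene of BCL-XL, averaged 14.1 CPM in LPS plus BHB, 41.1 CPM in LPS and 58.4 CPM in control, with a log2 fold change of -1.54 (adjusted p = 2.78e-12) in LPS plus BHB against LPS. Mcl1 averaged 532 CPM in LPS plus BHB, 493 CPM in LPS and 847 CPM in control, a fall of 0.78 with LPS (adjusted p = 7.64e-13). Bcl2l2 averaged 75.4 CPM in LPS and 46.5 CPM in control (log2 fold change 0.70, adjusted p = 9.23e-10), and Bcl2l11, the gene of BIM, averaged 115 CPM in LPS plus BHB and 162 CPM in LPS (log2 fold change -0.50, adjusted p = 9.79e-08). In LPS against control the median log2 fold change was -0.05 over the transcription factors, 0.01 over the mTORC1 and AMPK genes, 0.15 over the fusion genes, -0.39 over the further cargo receptors, -0.36 over the other core genes and -0.64 over the BCL2 family genes, beside -0.06 over all genes. With BHB added to LPS it was -0.10 over the fusion genes, 0.09 over the further cargo receptors, 0.02 over the other core genes and -0.01 over the BCL2 family genes, beside 0.01 over all genes. All listed genes of these 6 lists were tested, and the lists are described by their counts, with no test of a list.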

How the data were processed

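The authors deposited 1 table of raw, unnormalized read counts by gene symbol, with a column for each of the 9 libraries and no replicates pooled. Reads were aligned with HISAT2 to mm10, per the submitters' processing notes, while its version, the counting program, the gene models and strandedness are not given in the sources that were used. Without strand, a gene and its antisense partner cannot be told apart. Genes with few counts were removed with filterByExpr (minimum count 10), which left 14026 of 46095 symbols with 99.956% of the counts. A robust quasi-likelihood model with a term for group was fitted to all 9 libraries in edgeR 4.0.16 (R 4.3.3) after TMM scaling. It had 6 residual degrees of freedom and a biological coefficient of variation of 6.72%. P-values, two-sided, were adjusted by Benjamini-Hochberg over all genes tested, and genes were called at 0.05. The SE of a log2 fold change is its size divided by the square root of the F statistic, and is approximate. CPM are TMM-scaled, and RPKM divides them by merged exon length in GENCODE M21 (GRCm38, the build that mm10 names). Promoter sequences are from RefSeq. The fit was tested on simulated data with known changes.

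Replicates differed by more than sampling noise (chi-square per degree of freedom 3.16 to 11.2), so all were counted separately. The alternatives were DESeq2 size factors, library totals, no filter, DESeq2 1.42.0, glmTreat against a fold of 1.5, the replicate number as a block, a fit to only the 6 libraries being compared, each replicate left out, and control replicates 2 and 3 left out together. For family shares they were counts without lengths and each replicate left out. The members and lists were chosen with earlier results of these data known. Values in every library are given for members with a called change of at least 2-fold in some comparison and for Sqstm1, Map1lc3b, Ulk1, Becn1 and Atg5. In each pathway list the 2 called genes with the smallest p are named per comparison, and also Tfeb and Mtor. Values in every library for Gabarap, and the motifs searched, were chosen after values were seen. Retreg1 and Castor1 were found in the table under the older symbols Fam134b and Gatsl3.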

Additional observations from a re-analysis of the deposited data

How the results depend on the processing

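Of 34 members, tested against a fold of 1.5 with glmTreat in place of any change, 9 were higher and 5 lower in LPS against control, 3 higher and 1 lower in LPS plus BHB against LPS, and 7 higher and 5 lower when LPS plus BHB was set against control. Of the 14026 genes tested, the same test called 3369 higher in LPS against control, and 1205 higher and 571 lower in LPS plus BHB against LPS. It called 3265 higher and 3727 lower when LPS plus BHB was set against control. The number of all genes lower in LPS against control stayed within 1.5 times the main count of 5801. The construction of that test, which asks for a larger change, gives the lower counts. With library totals 11 members were higher in LPS plus BHB against control. Every other count of members or of all genes called higher or lower stayed within 1.5 times the value reported, under every alternative run. The same alternatives were applied, after the data were seen, to members changed by at least 2-fold and to the pathway lists. With library totals 2 members were at least 2-fold higher in LPS plus BHB against control, in place of 6, and every other count of members or of all genes at least 2-fold changed stayed within 1.5 times. Of the 36 pathway list counts 7 moved further with library totals and 22 with glmTreat. Leaving out each replicate in turn gave 17 to 18 members higher and 10 to 12 lower in LPS against control, 6 to 7 higher and 11 to 13 lower in LPS plus BHB against LPS, and 17 to 18 higher and 11 to 12 lower when LPS plus BHB was set against control.

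Signs turned for values close to 0 or under library totals. That scaling lowered the median log2 fold change of all genes by 0.27 in LPS against control. The median fell by 0.05 in LPS plus BHB against LPS and by 0.33 in LPS plus BHB against control. What lies behind that shift and the other turns was not tested. With library totals the log2 fold change in LPS against control was -0.043 for Atg16l1, -0.26 for Atg2b, -0.12 for Pik3c3 and -0.081 for Mtor. In LPS plus BHB against LPS it was -0.046 for Atg4d and -0.014 for Atg5. In LPS plus BHB against control it was -0.011 for Atg16l1, -0.32 for Atg2b, -0.12 for Becn1 and -0.014 for Nbr1. With DESeq2 or its size factors Gabarapl2 was at 0.022 and Wipi1 at 0.029 in LPS against control, Atg4d at -0.0034 in LPS plus BHB against LPS and Mtor at 0.0044 in LPS plus BHB against control. Without the filter Gabarapl2 was at 0.015 and Wipi1 at 0.021 in LPS against control and Atg4d at -0.0071 in LPS plus BHB against LPS. Wipi1 was at 0.0040 in the fit of 6 libraries. Without control replicates 2 and 3 LPS against control gave -0.00052 for Atg2b, 0.092 for Gabarapl2 and 0.13 for Wipi1, and LPS plus BHB against control gave -0.0068 for Atg2b and 0.011 for Atg5. Leaving out each replicate in turn gave, in LPS against control, -0.0063 to 0.060 for Atg2b, -0.059 to 0.038 for Gabarapl2 and -0.068 to 0.032 for Wipi1. In LPS plus BHB against LPS it gave -0.66 to 0.17 for Atg2a, -0.073 to 0.037 for Atg2b and -0.038 to 0.037 for Atg4d, and in LPS plus BHB against control -0.049 to 0.062 for Atg2b and -0.070 to 0.030 for Mtor. Differences of family shares changed sign without a replicate for Atg2a (-3.95 to 0.897 percentage points) and Gabarap (-0.0249 to 0.0743) with BHB added to LPS, also for Atg16l1 (-1.85 to 0.871) in LPS plus BHB against control, and from counts without lengths for Gabarapl2 in LPS against control (0.140).

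Same-numbered libraries did not deviate together, with correlations from -0.0166 to 0.0392, so the numbers were not taken as pairs. In LPS plus BHB against LPS each library correlated best with its own number, at 0.0138 to 0.0392. A pair of different numbers reached 0.043 in LPS against control. That order comes from the data and not from the design, and was not tested. With the replicate block 18 members were higher and 11 lower in LPS against control, 7 and 11 with BHB added to LPS, and 17 and 12 in LPS plus BHB against control. Depth limits Atg2a, Atg10 and Gabarap, which have 10 to 159 counts per library.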
